A study of Mus musculus with 6 samples.

Results

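The genes described here encode the histones and chromatin architectural proteins that a cell makes outside DNA replication: 10 replacement histone and high mobility group (HMG) genes of the 55367 gene symbols in the table. They were chosen by symbol. H3f3a, H3f3b, H1f0, Hmgb1, Hmgn1 and Hmgn2 stood in the table under those 6 names. The other 4 were found through RefSeq synonyms: H2afz is listed as H2az1, H2afv as H2az2, H2afy as Macroh2a1 and H2afj as H2aj. These current symbols are used from here on.

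Most histone messages are made only while DNA is copied and end in a stem-loop instead of a poly(A) tail. Replacement histone genes, by contrast, are transcribed throughout life and give polyadenylated messages, so neurons, which no longer divide, renew their nucleosomes from them. Histone H3.3 is laid down at transcribed genes, regulatory elements and telomeres, H2A.Z sits in the nucleosomes that flank transcription starts, macroH2A carries a large globular extra domain and is known from silenced chromatin, and H1.0 is the linker histone of differentiated, resting cells. HMGN proteins bind nucleosomes and compete with linker histones, while HMGB1 bends DNA in the nucleus and acts as an alarm signal when it leaves the cell.

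The study compared 3 Run libraries, from mice that ran voluntarily for 28 days, with 3 NR libraries, from mice that did not run. All mice carried TRAP2;Ai9, that is Fos-iCreERT2 with Rosa26-LSL-tdTomato, and all had gone through learned helplessness, a procedure of stress that cannot be escaped. The Fos promoter drives the inducible Cre, so a cell turns red for good if it was active while the inducer was present. Red cells were sorted from the hippocampal dentate gyrus and their polyadenylated RNA was copied by Smart-seq2, a full-length method that amplifies cDNA by PCR. The labels place all 6 libraries in batch 1. How many cells or animals stand behind a library, and the age of the mice, are not stated in these sources, so a p-value measures only the spread between libraries, which may be technical.

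The table gives FPKM, fragments counted per length of transcript and per total of the library, and levels of different genes can therefore be compared per length. The FPKM of a library summed to 473786 to 492021, and 5426 to 7355 genes reached FPKM 1. Depth is unknown. The label of the cells as neurons was met only in part. The 8 neuron markers summed to 616 to 1128 FPKM in Run and 339 to 903 in NR. The 10 astrocyte markers summed to 3456 to 8943 in Run and 4079 to 6291 in NR. The 8 endothelial markers summed to 1920 to 2653 in Run and 1924 to 4157 in NR. Each of the 8 granule neuron markers was under FPKM 1 in at least 1 library. Such low values were common in the table. Only 1742 genes outside the 10 reached FPKM 1 in every library, while 6155 genes in all did so in 3 or more. NR replicate 1 had the lowest sums of the neuron, granule neuron and immature neuron markers, with 6 of the 8 granule neuron markers and 5 of the 7 immature neuron markers listed at 0. The interneuron markers had a sum of 43.4 FPKM in NR replicate 1, against 1.41 and 31.9 in NR replicates 2 and 3. That sum was Gad1 alone in NR replicate 1, where 5 of the 6 interneuron markers were listed at 0. In NR replicates 2 and 3, 4 and 5 of the 6 were listed at 0. Fewer cells of a type and less RNA per cell cannot be told apart in such pools.

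Both H3.3 genes and both H2A.Z genes are near-copies of each other in what they encode, so the values of each pair rest on reads that tell the genes apart. The first 90 coding bases of each are shown for that reason, from the GENCODE M21 transcripts, with capitals where the genes of a pair differ.
H3f3a: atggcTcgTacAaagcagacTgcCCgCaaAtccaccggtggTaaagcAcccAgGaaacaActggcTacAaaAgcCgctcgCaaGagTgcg
H3f3b: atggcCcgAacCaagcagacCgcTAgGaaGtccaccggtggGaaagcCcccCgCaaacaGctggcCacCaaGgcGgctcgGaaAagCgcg
H2az1: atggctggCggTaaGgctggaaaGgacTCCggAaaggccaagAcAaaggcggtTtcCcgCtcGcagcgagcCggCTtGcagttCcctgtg
H2az2: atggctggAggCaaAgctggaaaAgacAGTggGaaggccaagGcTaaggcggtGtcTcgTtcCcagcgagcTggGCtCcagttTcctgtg
In the stretch shown, the H3.3 genes differed at 20 bases and the H2A.Z genes at 19. Over the whole coding sequence, 313 of 408 bases (76.7%) were the same in H3f3a and H3f3b, and 304 of 384 (79.2%) in H2az1 and H2az2. The longest stretch without a difference was 23 bases for the H3.3 genes and 14 bases for the H2A.Z genes.

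The promoters of H3f3a, H3f3b and H1f0 are shown because the H3.3 genes give the same protein at different levels and H1f0 had the largest log2 difference of the 10 between the groups. Each window runs from 250 bases before to 50 bases after the RefSeq start (GRCm38.p6), 5' to 3' on the gene's strand. Capitals mark CCAAT or TATAAA on either strand. The windows are chr1:180813556-180813855 (minus strand) for H3f3a, chr11:116024455-116024754 (minus strand) for H3f3b and chr15:79027962-79028261 (plus strand) for H1f0.
H3f3a: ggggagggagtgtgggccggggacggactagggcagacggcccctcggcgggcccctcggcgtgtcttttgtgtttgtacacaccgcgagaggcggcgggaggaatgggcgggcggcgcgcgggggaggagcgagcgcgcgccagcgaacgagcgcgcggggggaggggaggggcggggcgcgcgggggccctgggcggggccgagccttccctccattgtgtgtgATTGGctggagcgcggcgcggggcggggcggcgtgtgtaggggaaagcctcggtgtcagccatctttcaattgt
H3f3b: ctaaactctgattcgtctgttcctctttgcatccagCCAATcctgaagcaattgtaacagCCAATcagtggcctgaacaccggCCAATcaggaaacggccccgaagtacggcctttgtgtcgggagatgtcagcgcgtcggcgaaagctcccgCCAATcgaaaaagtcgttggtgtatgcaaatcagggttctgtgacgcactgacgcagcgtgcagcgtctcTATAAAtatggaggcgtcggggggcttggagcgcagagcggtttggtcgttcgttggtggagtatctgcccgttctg
H1f0: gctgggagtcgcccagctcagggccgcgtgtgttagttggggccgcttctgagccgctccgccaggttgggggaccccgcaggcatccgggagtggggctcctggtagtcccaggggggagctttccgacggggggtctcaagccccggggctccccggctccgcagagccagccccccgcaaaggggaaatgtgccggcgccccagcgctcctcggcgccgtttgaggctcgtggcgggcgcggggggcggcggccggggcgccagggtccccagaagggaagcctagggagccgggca
H3f3b had 4 CCAAT boxes and 1 TATAAA, H3f3a had 1 CCAAT box and no TATAAA, and H1f0 had neither. Of the 10 genes, 8 held CCAAT in a window (for Hmgb1, in 1 of its 2 windows), as did 37.4% of all 32851 windows of the same length. TATAAA was found in H3f3b and in no other of the 10 genes, against 13.6% of all windows. GGGCGG, the GC box, was found in 9 of the 10 genes, all but H3f3b, against 35.7% of all windows. AAACACA, the core of the H1 box known from linker histone promoters, was found in H3f3a alone of the 10 genes, against 7.18% of all windows. Each motif was searched on both strands. GC content was 74.0% for H3f3a, 55.0% for H3f3b and 75.0% for H1f0, and the median of all windows was 52.7%. GENCODE starts H1f0 238 bases farther downstream, past the end of its window. It starts H3f3a and H3f3b farther upstream than RefSeq does, before the beginning of their windows. A match of letters is a description and not a site in use.

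All 10 genes entered the test: 9 reached FPKM 1 in every library, and H2aj did so in 5. Hmgn2 had the highest mean over the 6 libraries, 773 ± 317 FPKM (SD), followed by H3f3b at 660.1 ± 282, and the lowest mean was that of H2aj. By library, H2aj was the lowest of the 10 in every Run library and H1f0 was the lowest in every NR library. Hmgn2 and H3f3b ranked 52 and 70 among the 6155 genes tested, and H2az1 (141) and Hmgb1 (281) were also among the abundant messages. In that order the step below H3f3b was larger than the SD of either neighbour, and so were the steps below H2az2 and below Macroh2a1. The step below Macroh2a1 turned with the group, however. Macroh2a1 was above H2aj in every Run library and below it in every NR library. Between the other neighbours the step did not exceed the larger SD. These were Hmgn2 and H3f3b, H2az1 and Hmgb1, Hmgb1 and H3f3a, H3f3a and Hmgn1, Hmgn1 and H2az2, and H1f0 and Macroh2a1. The SD covers all 6 libraries, so it includes any difference between the groups. H1f0 was below Macroh2a1 in every NR library and in Run replicate 1, and above it in Run replicates 2 and 3. H2az1 above Hmgb1, Hmgb1 above H3f3a and Hmgn1 above H2az2 each held in 5 of 6 libraries, as did H3f3b above H2az1. The 10 genes together took 0.402% to 0.801% of the summed FPKM in Run libraries and 0.373% to 0.473% in NR libraries.

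**Figure D1:**
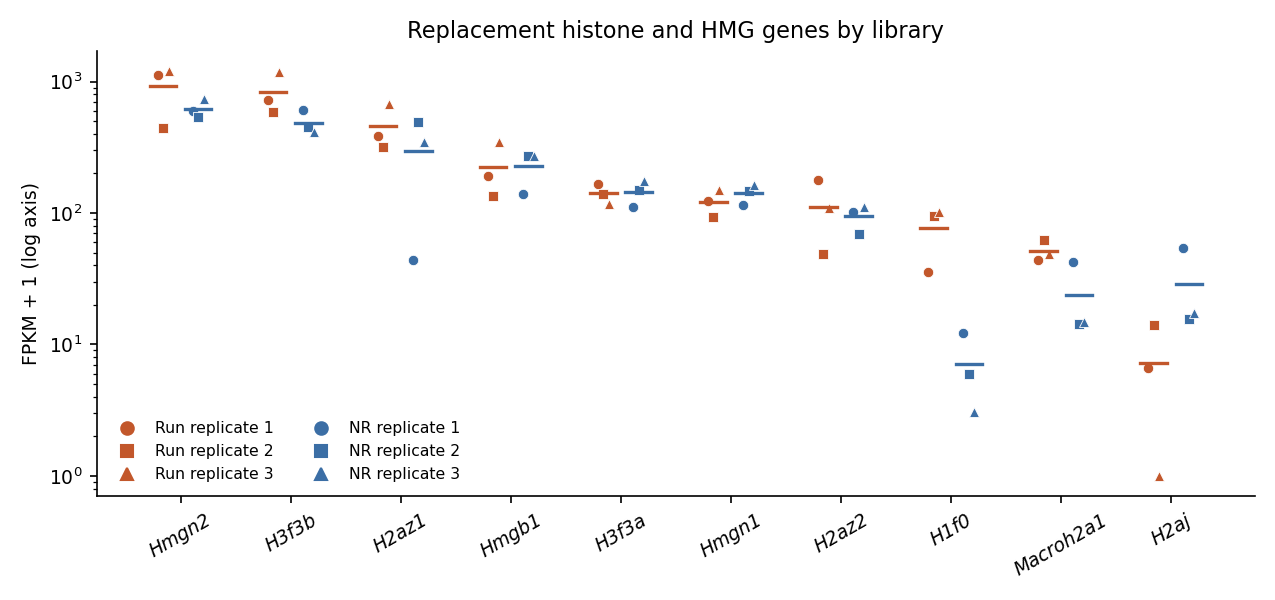
FPKM + 1 on a log axis for each of the 10 genes, ordered by mean level, with 1 point per library (Run left, NR right of each gene) and a bar at the group mean. Most genes overlap between groups. H1f0 lies higher in every Run library (34.6 to 101 FPKM) than in any NR library (2.05 to 11.2 FPKM), and H2az1 is low in NR replicate 1.

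Running against no running gave no change in these genes that passed the test. By limma on log2(FPKM + 1), with Benjamini-Hochberg adjustment over all 6155 genes tested, 0 of the 10 reached an adjusted p under 0.05, and 0 of all genes did (0%). Differences are given as Run minus NR in log2(FPKM + 1) units, and the added 1 shrinks those of weakly expressed genes. They were positive for 6 and negative for 4 of the 10 genes, with a median of 0.27, against a median of -0.03 over all genes tested, of which 3007 were positive. Run values lay above NR values with no overlap for 2 of the 10, H1f0 and Macroh2a1, where 4.76% of all genes tested did so. They lay below for 1 of the 10, H2aj, where 4.19% of all genes did so, which makes 3 of 10 either way against 8.95%. At an unadjusted p under 0.05 stood 1 of the 10, H1f0, in a table where 4.94% of all genes did (2.45% with Run higher and 2.49% with Run lower).

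**Figure D2:**
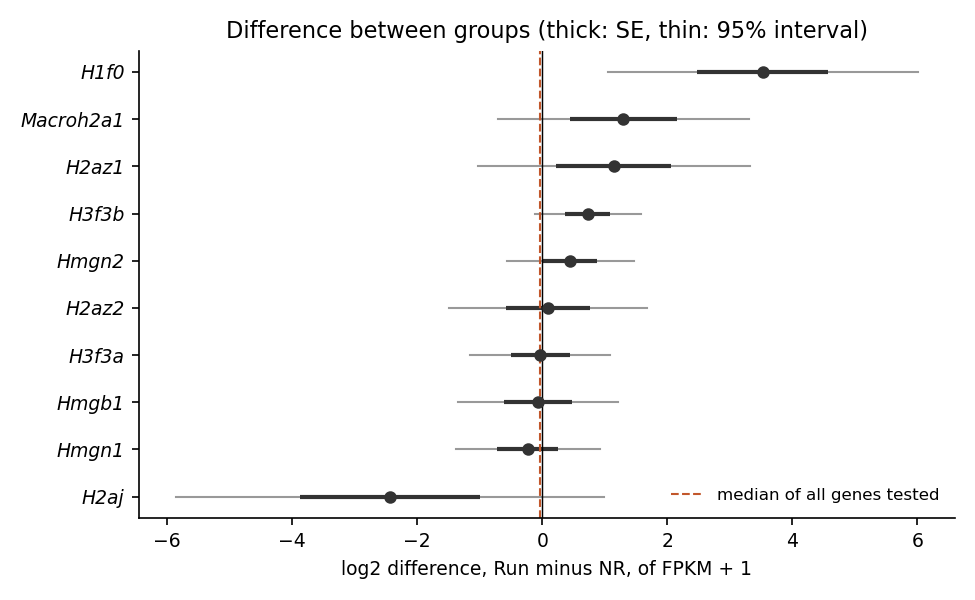
Log2 difference, Run minus NR, for each gene with its SE (thick bar) and 95% interval (thin bar) from limma, and the median of all genes tested as a dashed line. The interval of H1f0 (1.05 to 6.01) is the only one of the 10 that does not include 0, before adjustment for the number of genes tested.

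H1f0 (ENSMUSG00000096210.2, chromosome 15, 79028450 to 79030504, plus strand of mm10) encodes the linker histone H1.0, which binds where DNA enters and leaves the nucleosome. It had 34.6, 94.0 and 101 FPKM in Run replicates 1, 2 and 3, against 11.2, 5.01 and 2.05 in NR replicates 1, 2 and 3. The groups did not overlap, and the lowest Run library was above the highest NR library. The mean was 76.4 ± 36.3 FPKM in Run and 6.09 ± 4.67 in NR (SD, n = 3 each), a ratio of 12.6. The log2 difference was 3.53 ± 1.05 (SE; limma unadjusted p = 0.012, adjusted p = 0.508). By that p it ranked 145 of the 6155 genes tested. The gene has 1 annotated transcript. Gm49544, which overlaps it on the opposite strand, was listed at 0 in every library. Some markers of other cell types separated the groups too. None of the 10 marker lists did so by its summed FPKM, but a sum is carried by its abundant genes, and of the 60 single markers tested, 2 had Run above NR without overlap and 2 had Run below (4.76% and 4.19% of all genes tested did so). Rrm2, a cycling cell marker that makes DNA precursors, had 107, 42.1 and 190.0 FPKM in Run, against 0, 0.0188 and 0 in NR (limma unadjusted p = 0.000902, adjusted p = 0.244). Other genes shared that adjusted p, the smallest of all genes tested, and some of them had a smaller unadjusted p. C1qb, a complement gene of microglia, had 64.0, 220.2 and 130.1 in Run, against 0, 37.9 and 5.41 in NR. The cycling marker Mcm3 had 0.0088, 30.1 and 0 in Run, against 50.8, 33.8 and 31.4 in NR. Flt1, an endothelial marker, had 28.2, 9.76 and 25.7 in Run, against 36.2, 58.9 and 54.9 in NR. Within their lists the signs were mixed. Of the tested cycling, microglia and endothelial markers, 5, 3 and 3 had positive differences, and 2, 1 and 5 had negative ones, in that order. Single markers therefore do not give the share of a cell type. The part of such cells in the H1f0 difference was not tested.

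H1f2, the somatic linker histone H1.2, showed the opposite order of groups. It had 0.0212, 6.66 and 11.5 FPKM in Run replicates 1, 2 and 3, against 57.8, 51.6 and 85.8 in NR replicates 1, 2 and 3. Every Run library lay below every NR library. The log2 difference was -3.81 ± 1.26 (SE; limma unadjusted p = 0.0197, adjusted p = 0.691), so H1f2 did not pass the test either. The other 5 linker genes were looked at after these values were seen, which makes 7 in all. H1f4 had 0.00643, 6.97 and 9.60 FPKM in Run and at most 0.269 in NR. H1f5 had 36.7 in Run replicate 1 and at most 0.0722 elsewhere, H1f1 had 27.8 in NR replicate 2 and was listed at 0 elsewhere, and H1f3 stayed at or below 0.385 in all 6 libraries. H1f10 had 4.50 in Run replicate 1 and was listed at 0 elsewhere.

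The sum over the 7 linker genes differed less than its parts. It was 75.8, 108 and 122 FPKM in Run replicates 1, 2 and 3, against 69.0, 84.8 and 88.1 in NR replicates 1, 2 and 3, and the groups overlapped. H1f0 made up 45.7%, 87.3% and 82.6% of that sum in the Run libraries, against 16.2%, 5.91% and 2.32% in the NR libraries. H1f2 made up 0.0279%, 6.18% and 9.46% in Run, against 83.8%, 60.8% and 97.4% in NR. H1f0 thus had the highest FPKM of the 7 in Run replicates 2 and 3, H1f5 was slightly above it in Run replicate 1, and H1f2 led in all 3 NR libraries. These shares were formed after the values were seen and were given no test. They may also compare messages that were not captured alike. The libraries copied polyadenylated RNA, and the replication-dependent genes H1f1, H1f3, H1f4 and H1f5 give messages that mostly lack a poly(A) tail. H1f2 is a histone cluster gene too, so its FPKM may likewise be understated beside that of H1f0.

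**Figure D3:**
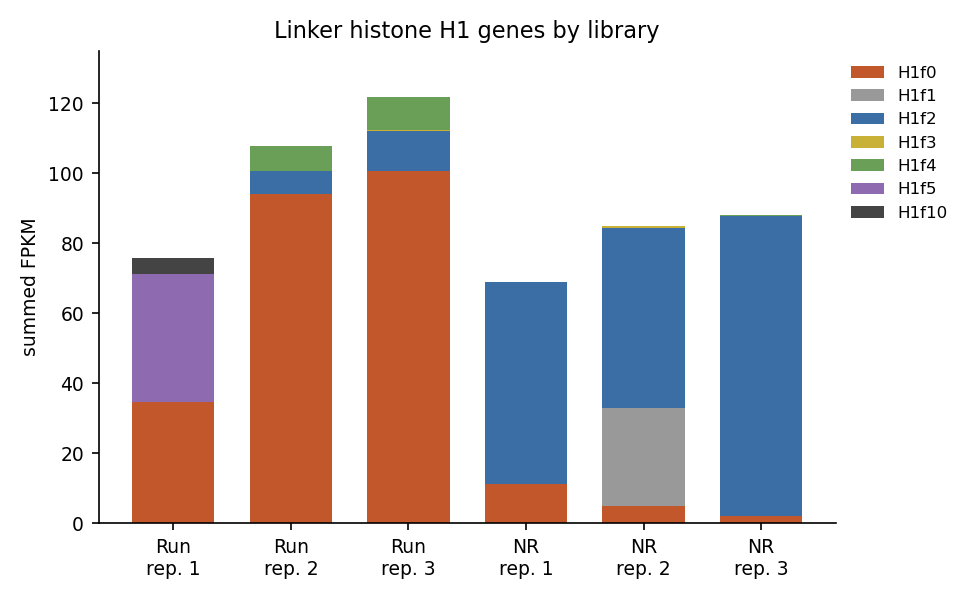
Summed FPKM of 7 linker histone genes in each library, stacked by gene, with the 3 Run libraries left of the 3 NR libraries. H1f0 fills most of the bar in Run replicates 2 and 3 (87.3% and 82.6%), and H1f2 fills most of it in every NR library (60.8% to 97.4%). The genes may not be captured alike, as replication-dependent messages mostly lack a poly(A) tail.

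H3.3 messages came mainly from H3f3b (ENSMUSG00000016559.14, chromosome 11, 116021912 to 116027962). It had 725, 585 and 1188 FPKM in Run replicates 1, 2 and 3, against 602, 449.9 and 409.8 in NR replicates 1, 2 and 3. Run replicate 2 fell below NR replicate 1, so the groups overlapped, and Run replicate 3 was the highest of all. The mean was 833 ± 315 in Run and 487 ± 102 in NR (SD, n = 3 each). The log2 difference came to 0.73 ± 0.36 (SE; 95% interval -0.12 to 1.57; limma adjusted p = 0.978). It was 0.44 without Run replicate 3 and 0.61 to 0.95 when another library was left out. H3f3a (ENSMUSG00000060743.12, chromosome 1, 180800832 to 180813943), which encodes the same protein, had 167, 139 and 116 FPKM in Run, against 109.7, 149.7 and 175 in NR. Its log2 difference was -0.03 ± 0.47 (SE; 95% interval -1.15 to 1.09; adjusted p = 0.996), and its sign turned with the library left out. H3f3a was among the steadiest of the set. Of 791 tested genes with a mean within 2-fold of its own, 2.15% had a smaller residual SD.

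H3f3b supplied 81.3%, 80.8% and 91.1% of the summed H3.3 FPKM in Run replicates 1, 2 and 3, against 84.6%, 75.0% and 70.1% in NR replicates 1, 2 and 3. The share averaged 84.4% ± 5.79 in Run and 76.6% ± 7.36 in NR (SD, n = 3 each; 2-sided exact permutation p = 0.3, adjusted p = 0.45 over 3 gene pairs). With 3 libraries against 3 the smallest p this test can give is 0.1. Processed copies were left out of these shares. Both pseudogenes named after H3f3a summed to 2.82% to 12.3% of its FPKM, the highest value being in Run replicate 2, and how reads were divided between gene and copies is not stated. H3f3aos, antisense to H3f3a, had at most 0.011 FPKM.

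**Figure D4:**
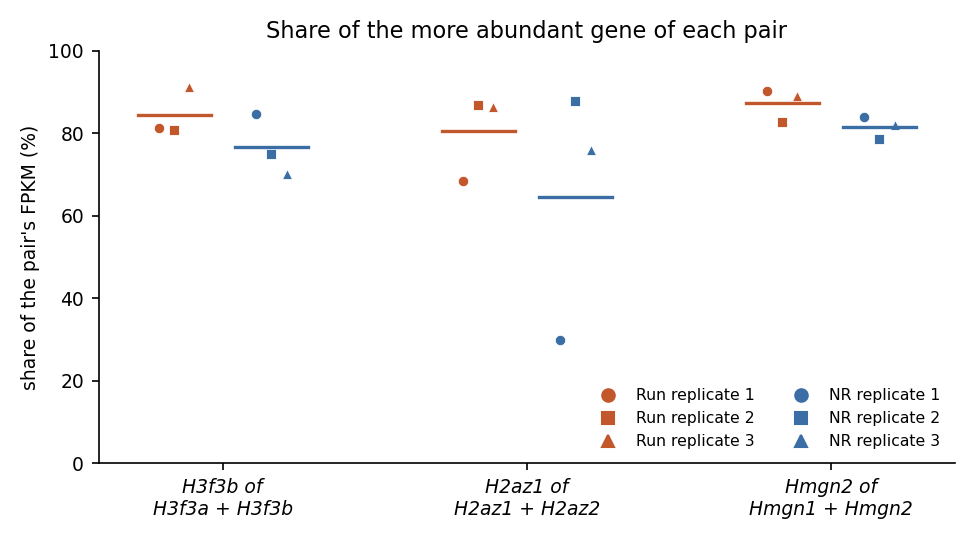
Share of the more abundant gene in the FPKM of its pair, in percent from 0 to 100, for H3.3, H2A.Z and HMGN, with 1 point per library (Run left, NR right) and a bar at the group mean. The shares overlap between groups in all 3 pairs, and the H2az1 share of 29.9% in NR replicate 1 lies apart.

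H2az1 (ENSMUSG00000037894.13, chromosome 3, 137864487 to 137866922) encodes the main H2A.Z isoform and is known to be high in dividing cells and progenitors. It had 384, 315 and 678 FPKM in Run replicates 1, 2 and 3, against 43.2, 491 and 349 in NR replicates 1, 2 and 3. NR replicate 1 stood far below the other 5 libraries, which otherwise overlapped. The mean was 459 ± 193 in Run and 294 ± 229 in NR (SD, n = 3 each). The log2 difference came to 1.15 ± 0.92 (SE; limma adjusted p = 0.978). Without NR replicate 1 the difference was 0.07, and without NR replicate 2 it was 1.81. H2az2 (ENSMUSG00000041126.16, chromosome 11, 6427229 to 6444443), the gene of the second isoform, had 177, 48.0 and 108 FPKM in Run, against 101, 67.7 and 110.5 in NR. NR replicate 1 was not low for it, and its log2 difference was 0.09 ± 0.67 (SE; adjusted p = 0.991), whose sign also turned with the library left out.

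H2az1 supplied 68.5%, 86.8% and 86.3% of the H2A.Z FPKM in Run replicates 1, 2 and 3, against 29.9%, 87.9% and 76.0% in NR replicates 1, 2 and 3. The share averaged 80.5% ± 10.4 in Run and 64.6% ± 30.6 in NR (SD, n = 3 each; 2-sided exact permutation p = 0.7, adjusted p = 0.7). The difference of 15.9 percentage points was -1.41 points without NR replicate 1. Single messages known from progenitors or dividing cells went both ways in that library, and those given here were chosen after their values were seen. Hmgb2, an HMGB gene of dividing cells, had 80.9, 16.6 and 150.4 FPKM in Run, against 0.049, 65.7 and 99.6 in NR. Hist1h2ap, a replication-dependent H2A gene, had 241, 43.6 and 141 in Run, against 0.841, 72.2 and 116 in NR, although its near-identical copies make that value uncertain. By contrast, Mcm3 was highest of the 6 libraries in NR replicate 1, and Pcna, the DNA polymerase clamp, had 281, 2.87 and 3.36 in Run, against 61.4, 74.3 and 0.0517 in NR. Hmgb3, an HMGB gene known from stem cells, had 53.9 in NR replicate 1, barely above the 53.3 of Run replicate 3. The immature neuron markers averaged 4.38, 2.75 and 4.37 on the log2(FPKM + 1) scale in Run, against 1.28, 4.86 and 2.84 in NR, with 1, 3 and 0 of 7 listed at 0 in Run and 5, 0 and 2 in NR. The cycling cell markers averaged 2.16, 2.40 and 3.04 in Run, against 1.29, 2.45 and 2.10 in NR, with 2, 6 and 5 of 12 listed at 0 in Run and 7, 4 and 6 in NR. Both lists thus had their lowest mean and the most markers at 0 in NR replicate 1. The part of immature neurons and cycling cells in the H2az1 value was not tested.

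Macroh2a1 (ENSMUSG00000015937.15, chromosome 13, 56073619 to 56136361) encodes macroH2A1. It had 43.0, 61.6 and 47.9 FPKM in Run replicates 1, 2 and 3, against 41.2, 13.3 and 13.9 in NR replicates 1, 2 and 3. The groups did not overlap, but NR replicate 1 came close to Run replicate 1. The mean was 50.8 ± 9.66 in Run and 22.8 ± 15.9 in NR (SD, n = 3 each). The log2 difference came to 1.30 ± 0.85 (SE; limma adjusted p = 0.978). The gene has 8 annotated transcripts, and its splice forms were not separated in a table with 1 value per gene.

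H2aj (ENSMUSG00000060032.6, chromosome 6, 136808244 to 136810074) encodes H2A.J, a variant that differs from canonical H2A mainly at its tail and is known from ageing cells. It had 5.65, 13.0 and 0 FPKM in Run replicates 1, 2 and 3, against 53.1, 14.6 and 16.4 in NR replicates 1, 2 and 3. Run libraries were below NR libraries without overlap, Run replicate 2 only narrowly. The log2 difference was -2.44 ± 1.45 (SE; limma adjusted p = 0.978). NR replicate 1, the lowest library for H2az1, was the highest here, and without it the log2 difference was -1.87. Without Run replicate 3, in which the gene is listed at 0, it was -1.35.

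The HMGN genes were expressed in every library. Hmgn2 (ENSMUSG00000003038.15, chromosome 4, 133964738 to 133968650) had 1121, 444 and 1203 FPKM in Run replicates 1, 2 and 3, against 599, 539.8 and 731 in NR replicates 1, 2 and 3. Run held both the highest libraries and the lowest. The mean was 923 ± 417 in Run and 623 ± 98.0 in NR (SD, n = 3 each). The log2 difference came to 0.45 ± 0.43 (SE; limma adjusted p = 0.978). Its size turned on the Run libraries: without Run replicate 2 it was 0.91 (limma adjusted p = 0.488), without Run replicate 1 it was 0.24, and without Run replicate 3 it was 0.19. Hmgn1 (ENSMUSG00000040681.16, chromosome 16, 96120618 to 96127729) had 122, 92.0 and 149.5 FPKM in Run, against 115, 146 and 161 in NR, and a log2 difference of -0.23 ± 0.49 (SE; 95% interval -1.38 to 0.92; adjusted p = 0.981). Its spread was as small as that of H3f3a. Of 860 tested genes with a mean within 2-fold of its own, 2.09% had a smaller residual SD.

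Hmgn2 supplied 90.2%, 82.8% and 88.9% of the FPKM of the HMGN pair in Run replicates 1, 2 and 3, against 83.9%, 78.7% and 81.9% in NR replicates 1, 2 and 3. The share averaged 87.3% ± 3.94 in Run and 81.5% ± 2.64 in NR (SD, n = 3 each; 2-sided exact permutation p = 0.2, adjusted p = 0.45). Run replicate 2 lay below NR replicate 1, so the groups overlapped. The pseudogene Hmgn2-ps1 had 47.7, 17.8 and 45.4 FPKM in Run, against 17.9, 14.5 and 39.0 in NR, which came to 2.69% to 5.33% of Hmgn2.

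Hmgb1 (ENSMUSG00000066551.12, chromosome 5, 149046702 to 149184489) had 190.1, 134 and 348 FPKM in Run replicates 1, 2 and 3, against 139, 269 and 273 in NR replicates 1, 2 and 3. The Run libraries included both the lowest and the highest value. The mean was 224 ± 111 in Run and 227 ± 76.1 in NR (SD, n = 3 each). The log2 difference came to -0.07 ± 0.54 (SE; 95% interval -1.34 to 1.21; limma adjusted p = 0.992), whose sign turned with the library left out. The 10 listed pseudogenes of Hmgb1 summed to 6.31% to 11.0% of its FPKM. Uspl1, which overlaps it on the opposite strand, had 11.4 FPKM in NR replicate 3 and was listed at 0 elsewhere.

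The spread between libraries of a group was set beside that of genes of like level, that is tested genes whose mean lay within 2-fold. For 8 of the 10 genes the residual SD on the log2(FPKM + 1) scale was below the median of their like-level genes. Hmgn2, with 0.59 against a median of 0.53, and H2az1 were above it. H2az1 had 1.39 against 0.64, and 93.2% of its 295 like-level genes had a smaller SD. H2aj had the largest SD of the 10, 1.55, but at its low level the median was 2.44. The mean log2(FPKM + 1) of the 10 genes was 7.10, 6.90 and 7.15 in Run replicates 1, 2 and 3, against 6.62, 6.58 and 6.60 in NR replicates 1, 2 and 3. Most of that gap came from H1f0. Without H1f0 the mean of the other 9 genes was 7.31, 6.94 and 7.20 in Run, against 6.95, 7.03 and 7.15 in NR, the groups overlapped, and the difference was 0.11 in place of 0.45. Over the 6 libraries, the 3 other genes most like this mean, among the 1742 that no library had below FPKM 1, were Rps24, a ribosomal protein gene (Pearson r = 0.98), Gm6278 (r = 0.97) and Zbed5 (r = 0.97). With the mean of the 9 genes without H1f0, the same genes had r = 0.73, 0.65 and 0.56, in that order. With 6 points that share their libraries, these are descriptions.

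**Figure D5:**
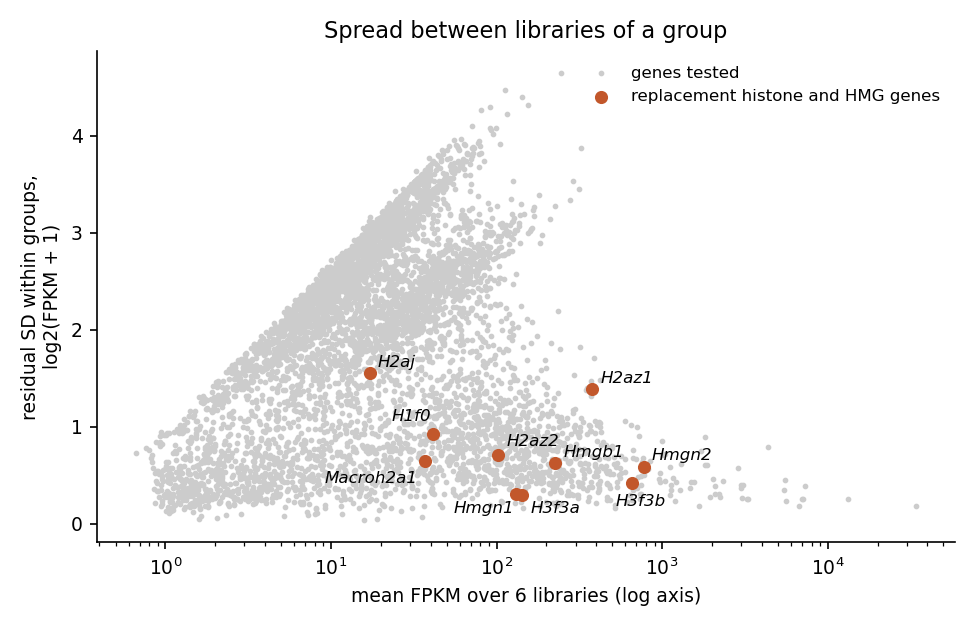
Residual SD within groups on the log2(FPKM + 1) scale against mean FPKM over 6 libraries (log axis), with grey points for all 6155 genes tested and larger points for the 10 genes. Hmgn1 and H3f3a lie near the lower edge at their level (0.30 each), and H2az1 lies high (1.39).

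Of 9 other histone genes listed as replacement genes, 5 were tested, 2 with positive and 3 with negative differences (median -0.61), and 0 passed. The list also held genes of the Hist1 and Hist3 clusters. H1f2, H2bc4 and H2aw are among them, so not all 9 are replacement variants. H2bc4 was the highest, at 201 ± 85.9 FPKM in Run and 291 ± 62.7 in NR (SD, n = 3 each). H2aw had 55.9, 84.4 and 0 FPKM in Run, against 47.8, 65.7 and 8.63 in NR. H2ax, the variant marked at broken DNA, had 47.3, 20.3 and 61.2 in Run, against 0, 14.8 and 103 in NR. Of 11 other HMG genes, 6 were tested, 4 positive and 2 negative (median 0.60), and 0 passed. Beside Hmgb2 these were led by Hmgn3, with 111, 40.6 and 0 in Run, against 93.6, 28.7 and 47.5 in NR, and Hmgb3, with 41.5, 0.0294 and 53.3 in Run, against 53.9, 0 and 8.75 in NR.

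Of 65 replication-dependent histone genes, whose messages mostly lack a poly(A) tail, 33 stayed below FPKM 1 in every library. The filter for testing kept 18 of the 65, against 6155 of the 55367 symbols in the table. By that filter these genes were not sparser than the table as a whole. Whether the missing tail lowered their values was not tested. Of the 18 tested, 10 were positive and 8 negative (median 0.67), and 0 passed. Hist1h2ao had 173 and 37.4 FPKM in Run replicates 1 and 2 and 119 in Run replicate 3, against 0.707, 43.9 and 96.7 in NR. H2ac18 had 51.6, 23.5 and 82.0 in Run, against 23.8, 57.1 and 12.8 in NR. H2ac15 had 65.8, 8.73 and 27.1 in Run, against 0.101, 0.419 and 23.8 in NR. H2bc11 had 0.537, 0.333 and 1.08 in Run, against 1.71, 0.785 and 1.67 in NR.

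Histones reach chromatin with the help of chaperones. Of 8 genes that deposit H3.3, 5 were tested, 3 positive and 2 negative (median 0.25), and 0 passed. Atrx, a remodeller that works with Daxx at silent repeats, had 45.5, 114 and 45.8 FPKM in Run, against 0.038, 6.16 and 8.14 in NR, without overlap (log2 difference 3.95 ± 1.26 SE; limma unadjusted p = 0.0165, adjusted p = 0.631). Asf1a, which hands H3 and H4 to other chaperones, had 29.3, 0 and 21.7 in Run, against 7.30, 7.63 and 15.1 in NR. Cabin1 and Ubn1 are partners of the chaperone Hira. Cabin1 had 5.59, 0 and 14.5 in Run, against 60.0, 0 and 0 in NR, and Ubn1 had 8.37, 1.46 and 0 in Run, against 0, 5.55 and 0 in NR.

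Of 11 genes that exchange or remove H2A.Z, 7 were tested, 5 positive and 2 negative (median 0.36), and 0 passed. Their summed FPKM was 260.1 to 374 in Run and 172 to 258 in NR. Actl6a, an actin-related subunit shared by several remodelling complexes, had 37.1, 48.5 and 97.5 FPKM in Run, against 0.0244, 3.63 and 0 in NR, without overlap (log2 difference 5.09 ± 1.27 SE; limma unadjusted p = 0.00511, adjusted p = 0.302). Anp32e, which removes H2A.Z, had 0.0294, 39.7 and 0.0159 in Run, against 92.5, 23.8 and 53.8 in NR. Vps72, which binds H2A.Z in the depositing complexes, had 175, 39.3 and 114 in Run, against 52.3, 57.2 and 59.5 in NR. Znhit1 had 22.0, 69.0 and 98.6 in Run, against 30.4, 35.7 and 80.2 in NR, and Ruvbl1 had 93.3, 15.0 and 61.6 in Run, against 0, 32.2 and 55.5 in NR.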

How the data were processed

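RNA of sorted tdTomato-positive cells was measured in 6 Smart-seq2 libraries, 3 Run and 3 NR. The deposited table holds FPKM for 55367 symbols. The authors worked with StringTie 2.1.7, STAR 2.7.5c and Trimmomatic 0.39 on build mm10, per the submitters' processing notes, which name DESeq2 and edgeR too. Roles and annotation are not given in the sources used here. GENCODE M21 of the same build gave coordinates and coding sequences. Depth is unknown, which limits the precision of low values, and reads shared with pseudogenes may be split.

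The 6155 genes that reached FPKM 1 in 3 or more libraries were tested on log2(FPKM + 1) with limma 3.58.1 in R 4.3.3 (mean-variance trend, 2-sided, Benjamini-Hochberg, threshold 0.05). The procedure was tried on simulated data, but with a spread within groups set smaller than in these libraries. That trial does not show how large a difference the test can find here. Shares within gene pairs were compared by exact permutation with scipy 1.17.1. Alternatives were another pseudocount (0.1), no filter, TPM scale, quantile normalization, a replicate block and leaving out each library. The genes and lists were chosen with earlier results of these data known. From each histone, HMG, chaperone and HMGB1 partner list the 3 highest genes and the 2 tested genes with the smallest p are named. The same rule covered the cell type marker lists, but only markers that bear on a result are named from those, chosen after their values were seen.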

Additional observations from a re-analysis of the deposited data

How the results depend on the processing

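No setting brought any gene past an adjusted p under 0.05 by limma: the count was 0 of 6155 genes with a pseudocount of 0.1, on the TPM scale, after quantile normalization, with the replicate block and without each library, and 0 of 17361 without the filter. Genes with an unadjusted p under 0.05 by limma numbered 304 of 6155. They numbered 251 to 365 of 6155 under the alternatives that kept the filter (251 with the block), and 404 of 17361 without it. H1f0 kept its direction under every alternative, with log2 differences of 3.03 to 4.03 when single libraries were left out. The sign of small differences turned with the library left out: H3f3a ranged from -0.22 to 0.12, H2az2 from -0.34 to 0.59 and Hmgb1 from -0.44 to 0.25. The number of positive differences among the 10 genes ranged from 5 to 8. The H2az1 share difference ranged from -1.41 to 27.6 percentage points, the negative value arising without NR replicate 1. Those of H3f3b (4.48 to 11.8) and Hmgn2 (4.40 to 8.08) kept their sign. Log2 differences without single libraries were 0.44 to 0.95 for H3f3b, 0.07 to 1.81 for H2az1, 1.03 to 1.81 for Macroh2a1, -3.25 to -1.35 for H2aj, -0.39 to -0.05 for Hmgn1 and 0.19 to 0.91 for Hmgn2. Same-numbered libraries correlated in their deviations from the group means with r = 0.021, 0.0042 and 0.018, so numbers were not taken as pairs, although each library correlated best with its own number; a replicate block cannot move the share differences (7.82, 15.9 and 5.83 points for H3f3b, H2az1 and Hmgn2), but the exact permutation p became 0.5, 0.5 and 0.25 in place of 0.3, 0.7 and 0.2. The exact tests of shares cannot fall below 0.1, or 0.25 with the block, and unknown depth limits what low values show.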

Other observations

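Histone chaperones of broader use and the partners of extracellular HMGB1 were also read. Of 14 general chaperone genes, 13 were tested, 10 positive and 3 negative (median 0.38), and 0 passed. Nap1l4, which carries H2A and H2B, had 160 and 44.7 FPKM in Run replicates 1 and 2 and 77.5 in Run replicate 3, against 23.0, 0 and 8.61 in NR, without overlap (log2 difference 3.76 ± 1.39 SE; limma adjusted p = 0.895). Anp32a had 22.5, 2.27 and 1.01 in Run, against 33.2, 29.5 and 55.5 in NR, also without overlap (log2 difference -2.86 ± 1.30 SE; adjusted p = 0.978). Npm1, the nucleolar chaperone nucleophosmin, had 147, 53.7 and 106 in Run, against 18.5, 221 and 173 in NR, and was thus lowest in NR replicate 1, as H2az1 was. Nap1l5 averaged 113 ± 53.6 in Run and 108 ± 32.2 in NR, and Set 127 ± 94.4 in Run and 54.7 ± 42.8 in NR (SD, n = 3 each).

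Of 7 genes for HMGB1 receptors and partners, 3 were tested, 1 positive and 2 negative (median -0.52), and 0 passed. Cd24a had 25.5, 26.5 and 256 FPKM in Run, against 1.86, 50.5 and 65.7 in NR. Cxcl12, a chemokine that forms a complex with HMGB1, had 0.0289, 21.5 and 76.5 in Run, against 10.9, 43.4 and 69.7 in NR. Thbd had 40.6, 0 and 7.69 in Run, against 9.23, 2.21 and 31.7 in NR. Of the 7 genes, 3 stayed below FPKM 1 in every library.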
